A study of Mus musculus with 3 samples.

Results

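Kruppel-like factors are transcription factors with 3 zinc fingers at the carboxyl end of the protein. Among the 17 Klf genes in the files, 9 are described here: Klf2, Klf3, Klf4, Klf6, Klf7, Klf9, Klf10, Klf13 and Klf15. They were taken by symbol from the 32285 genes listed, and each symbol had 1 row. The study isolated glomeruli from mouse kidneys with collagenase V, gradient centrifugation and differential adhesion, and sequenced the dissociated cells in droplets. There was 1 library for each of 3 conditions. The control library came from mice labelled as blank control. The study used MRL/MpJ mice as controls elsewhere, and the strain of this library was not given in the sources used here. The untreated model library came from female MRL/lpr mice, which carry the lpr mutation of Fas and develop lupus nephritis, included at about 16 weeks of age. The treated library came from such mice given 800000 mesenchymal stem cells of human umbilical cord (hUC-MSCs) through the tail vein, and both MRL/lpr libraries were taken at day 21. How many mice went into a library was not given in the sources used here. With 1 library per condition no comparison between conditions could be tested, and every interval below covers counting error only.

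Klf2 and Klf4 are raised by laminar blood flow in endothelial cells, where a kinase chain of Map3k3, Map2k5 and Mapk7 acts through MEF2 factors, and both are known for keeping the vessel wall free of clots and adhering leukocytes. Klf6 is an immediate early gene of injury in many cell types. Klf15 is known in podocytes and proximal tubule for responding to glucocorticoids, and Klf9 is a direct target of the glucocorticoid receptor. Klf10 is induced early by TGF-beta, Klf13 regulates chemokine transcription in T cells, Klf3 is a repressor known in B and erythroid cells, and Klf7 is known in neurons.

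The files held 94903163 UMIs (molecules counted once) in the control library, 103319588 in the untreated and 90812138 in the treated library. After filters 10047, 12516 and 14385 cells were kept, with a median of 4910, 3633.5 and 2726 UMIs per cell. Between 24 and 41 cell barcodes were shared by a pair of libraries, where 18.5 to 26.5 would fall together by chance. Levels are in CPM, the UMIs of a gene scaled to 1000000 UMIs of all cells of a class in a library. Classes were named from marker genes. Endothelial-like cells numbered 4508 in control, 4174 in untreated and 4836 in treated mice. The 12 endothelial markers by which they were named had a summed level of 14600, 12600 and 13600 CPM. In empty droplets, which hold free RNA, the same sum was 4610, 4140 and 4990 CPM. In all 1293, 84 and 1859 cells (12.9%, 0.67% and 12.9% of each library) took no name and are in no class, among them clusters 14 and 24, which carry endothelial genes. The 3 libraries did not share most of their endothelial clusters, so that condition, library and cluster cannot be told apart for a class as a whole.

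All 9 genes are protein coding. On GRCm38, Klf2 lies at chr8:72319033-72321656 on the plus strand, Klf4 at chr4:55527143-55532466 on the minus strand and Klf6 at chr13:5861482-5870394 on the plus strand. Klf3 lies at chr5:64803388-64832901, Klf9 at chr19:23141226-23168134 and Klf15 at chr6:90462576-90475238, all on the plus strand. Klf7 lies at chr1:64029447-64122282, Klf10 at chr15:38291463-38300706 and Klf13 at chr7:63886351-63938915, all on the minus strand. The promoter windows of Klf2, Klf4 and Klf6 are shown because these genes passed 2-fold between treated and untreated endothelial-like cells at levels above empty droplets in untreated cells. Each window is the 250 bases before the start given by RefSeq on GRCm38.p6, printed 5′ to 3′ on the strand of the gene; the last bases of the Klf2 and Klf6 windows lie inside the gene as GENCODE M21 places it. For Klf2 it is chr8:72318812-72319061, for Klf4 chr4:55532476-55532725 and for Klf6 chr13:5861239-5861488. Capitals mark a match to the MEF2 motif in Klf2 and to the E-box CACGTG in Klf4 and Klf6.
Klf2: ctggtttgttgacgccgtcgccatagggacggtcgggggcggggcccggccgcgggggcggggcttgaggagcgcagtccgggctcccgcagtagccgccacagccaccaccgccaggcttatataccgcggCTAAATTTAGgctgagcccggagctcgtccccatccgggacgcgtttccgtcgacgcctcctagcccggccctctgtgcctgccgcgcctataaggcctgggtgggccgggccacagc
Klf4: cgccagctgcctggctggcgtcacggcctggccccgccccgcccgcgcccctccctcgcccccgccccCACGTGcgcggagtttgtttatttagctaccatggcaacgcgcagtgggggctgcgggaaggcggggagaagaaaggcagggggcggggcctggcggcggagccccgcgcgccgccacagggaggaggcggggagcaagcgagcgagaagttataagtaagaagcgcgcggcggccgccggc
Klf6: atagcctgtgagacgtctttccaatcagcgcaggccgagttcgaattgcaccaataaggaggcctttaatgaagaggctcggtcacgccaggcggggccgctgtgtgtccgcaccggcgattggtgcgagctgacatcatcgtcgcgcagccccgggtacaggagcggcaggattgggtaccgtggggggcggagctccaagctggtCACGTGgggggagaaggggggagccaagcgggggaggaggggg

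The MEF2 match of Klf2 lay 118 to 109 bases before the start, and Klf2 alone had such a match among the 8 of 9 genes with a window, all but Klf10, which 2.92% of 32851 promoter windows held. The E-box lay 182 to 177 bases before the start of Klf4 and 43 to 38 bases before that of Klf6. It was found in 3 of 8 windows, the other being that of Klf15, against 6.02% of all windows. Both strands were searched, and no match shared bases with a match of another motif. The GC box GGGCGG was in 7 of 8 windows (32.7% of all) and the cyclic AMP element core TGACG in 5 of 8 (17.8%). The AP-1 site TGANTCA was in the window of Klf9 alone (6.75%), and TATAAA was in 0 of 8 (12.4%). The windows are rich in G and C, with 71.2% in Klf2, 74.0% in Klf4 and 64.8% in Klf6. A match describes the letters in the window and is not evidence of binding.

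In endothelial-like cells Klf2 stood at 4117 CPM in control mice, 6123 in untreated MRL/lpr mice and 2388 in treated mice. Klf4 followed the same order, with 815.5, 1063 and 419.8 CPM, and so did Klf6, with 346.9, 506.8 and 246.0 CPM. Treated Klf6 was below the 273.4 CPM of empty droplets in that library, and free RNA was estimated at 4.15%, 10.3% and 8.13% of endothelial UMIs. For these 3 genes the untreated library was the highest and the treated library the lowest. The log2 ratio of untreated MRL/lpr to control was 0.57 for Klf2 (95% interval 0.56 to 0.58), 0.38 for Klf4 (0.35 to 0.41) and 0.55 for Klf6 (0.51 to 0.59). None of the 3 was 2-fold higher in MRL/lpr mice. The log2 ratio of treated to untreated was −1.36 for Klf2 (−1.37 to −1.34), −1.34 for Klf4 (−1.38 to −1.30) and −1.04 for Klf6 (−1.09 to −0.99). Klf2 and Klf4 were thus more than 2-fold lower in the treated library. Klf6 was close to 2-fold lower, with an interval that reached past it and a ratio of −0.996 under the order-of-magnitude cell call. In the plot of levels by class and library the endothelial points of Klf2 and Klf4 lie above those of podocytes in every library.

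**Figure D1:**
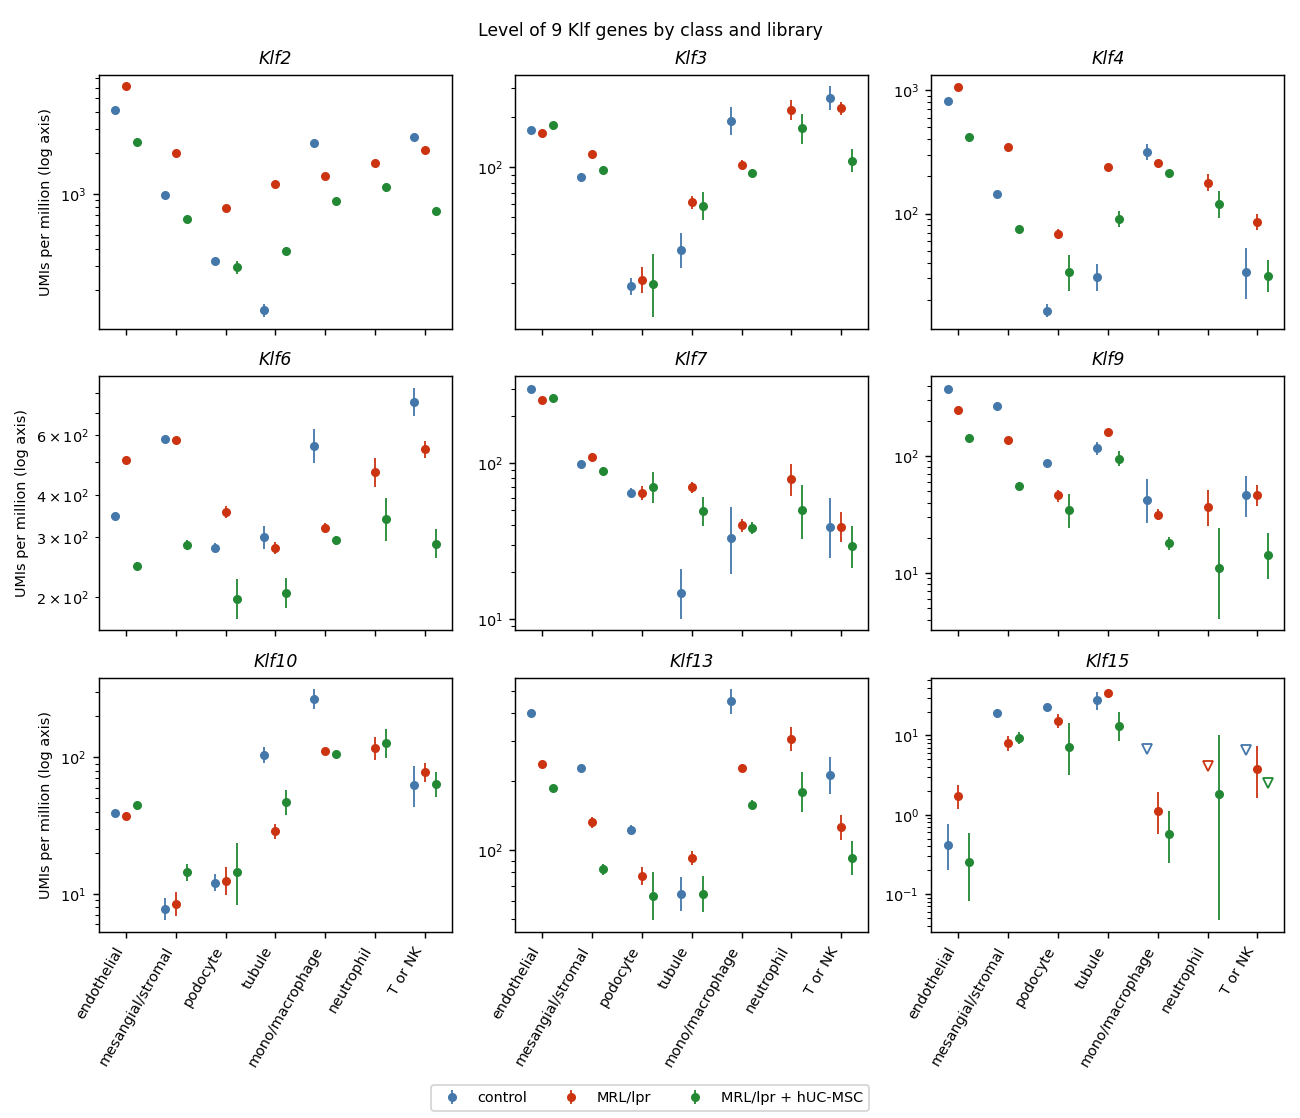
Level of each of the 9 Klf genes in CPM (UMIs scaled to 1000000, log axis) by cell class, with 1 point per library (control, untreated MRL/lpr, treated MRL/lpr) and bars for the exact 95% counting interval. Open triangles mark the upper limit where no UMI was counted, and classes under 50 cells in a library have no point. Klf2 in endothelial-like cells stands at 4117, 6123 and 2388 CPM.

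Over all 9 genes, 1 of 9 passed 2-fold in endothelial-like cells between untreated MRL/lpr and control mice, where 17.5% of 14767 genes did. Between treated and untreated mice 4 of 9 passed, all lower (Klf2, Klf4, Klf6 and Klf15), where 10.6% of 14990 genes did. The median log2 ratio of the 9 genes was −0.05 in the former and −0.78 in the latter comparison, beside 0.07 and 0.12 over all genes tested. Klf15 was the gene past 2-fold in the MRL/lpr comparison, on 10 and 35 UMIs, and its count in treated cells was 5. Those are levels of 0.414, 1.72 and 0.251 CPM, under the 12.6, 9.72 and 8.32 CPM of empty droplets. How much of endothelial Klf15 was free RNA was not tested.

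Klf9 and Klf13 followed another order, being highest in control and lowest in treated endothelial-like cells. Klf9 had 377.5, 245.4 and 143.4 CPM, with log2 ratios of −0.62 (−0.67 to −0.57) in untreated MRL/lpr over control and −0.78 (−0.84 to −0.71) in treated over untreated. Klf13 had 398.9, 239.7 and 187.2 CPM, with log2 ratios of −0.73 (−0.78 to −0.69) and −0.36 (−0.42 to −0.29). Klf3, Klf7 and Klf10 moved least. Klf3 stood at 166.6, 161.4 and 179.1 CPM, Klf7 at 297.9, 254.4 and 260.7, and Klf10 at 38.8, 37.3 and 44.5. Their log2 ratios ran from −0.23 to 0.25 over both comparisons.

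**Figure D2:**
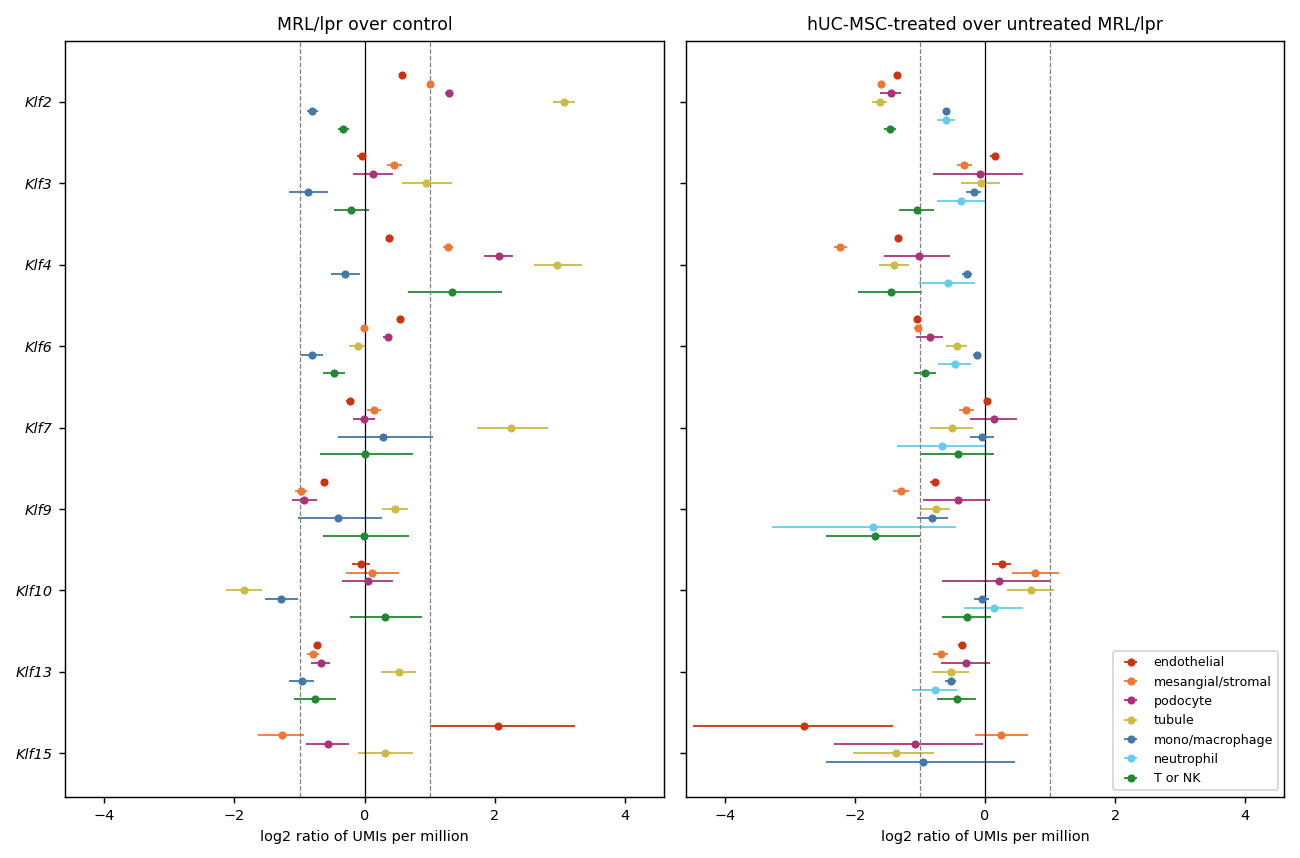
Log2 ratio of CPM for each gene and cell class, untreated MRL/lpr over control on the left and treated over untreated MRL/lpr on the right, with bars for the exact 95% counting interval and dashed lines at 2-fold. On the right, Klf2 and Klf4 lie beyond the 2-fold line in 5 of 7 classes each, while Klf7 and Klf10 lie within it in every class shown. Between 8.41% and 11.7% of all genes passed that line in these classes. All classes come from the same libraries. Klf4 of podocytes and Klf2 and Klf4 of the tubule fell short of 2-fold under some alternatives.

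Control endothelial cells were mostly in clusters 3 (led by Ifit1 and Cyp26b1, 2687 of its cells) and 9 (Cyp26b1 and Ednrb, 1660), which held 35 and 21 untreated cells. Untreated cells were mostly in cluster 0, led by Lrg1, Rhob and Cdkn1a, with 69, 2961 and 187 cells of the 3 libraries. Treated cells were mostly in clusters 2 (Sost and Ptprg; 80, 444 and 2431 cells) and 4 (the selectins Sele and Selp; 10, 146 and 1839 cells). Cluster 18, led by Tspan8 and Calca, had no marker of glomerular capillaries and held 2, 567 and 323 cells. Klf genes were not used to make the clusters, although Klf2 and Klf4 are among the 10 leading genes of cluster 0.

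Within each cluster that both MRL/lpr libraries filled with at least 50 cells, Klf2 and Klf4 were lower in treated cells, by less than over the class as a whole. Klf2 had 6676 CPM in untreated and 4371 in treated cells of cluster 0, a log2 ratio of −0.61 (−0.67 to −0.56). In cluster 2 it had 2114 and 1352 CPM, in cluster 4 4753 and 2730, and in cluster 18 5676 and 3714. The log2 ratios there were −0.64, −0.80 and −0.61, so that no cluster reached 2-fold. Klf4 gave −0.63, −0.38, −0.60 and −0.57 in clusters 0, 2, 4 and 18, and Klf6 gave −0.42, −0.31, −0.05 and −0.38. Klf6 in cluster 4 was thus near 0, with 298.6 and 288.2 CPM. Between untreated and control cells the log2 ratio of Klf2 was 0.81 (0.74 to 0.88) in cluster 0 and 0.04 (−0.09 to 0.18) in cluster 2, where only 69 and 80 control cells were found. The difference between the clusters was not tested.

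**Figure D3:**
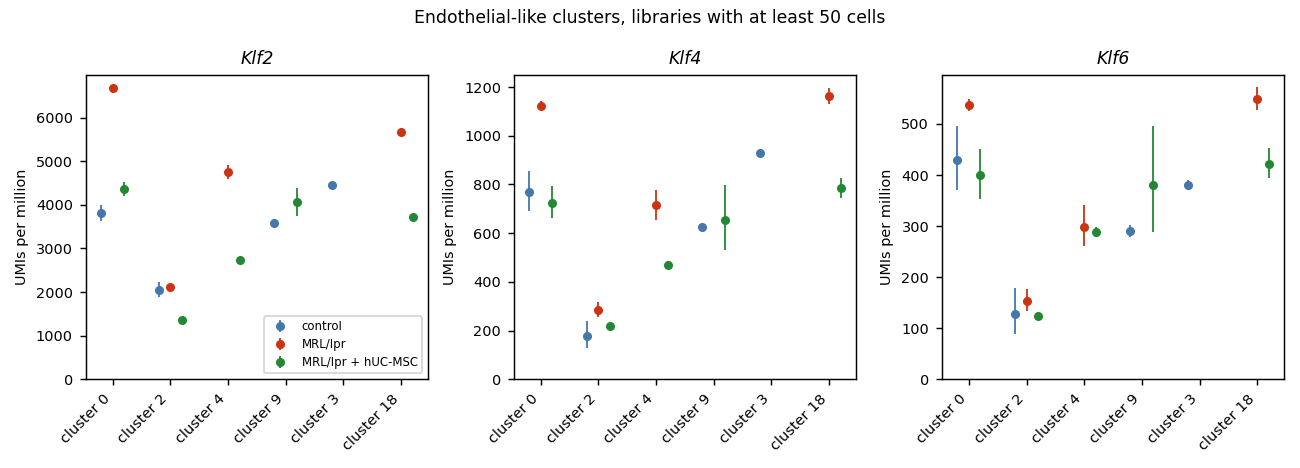
Klf2, Klf4 and Klf6 in CPM (linear axis from 0) in the 6 endothelial-like clusters, for each library with at least 50 cells of the cluster, with exact 95% counting intervals. In clusters 0, 2, 4 and 18 the treated point of Klf2 lies below the untreated point, and cluster 2 is the lowest for all 3 genes.

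Most endothelial-like cells carried Klf2. The median cell had 18 UMIs of Klf2 in control, 24 in untreated and 6 in treated mice, and the highest cell had 164, 275 and 136 UMIs. After each cell was thinned to 1000 UMIs, 92.4%, 96.2% and 78.1% of endothelial-like cells kept a Klf2 UMI, against 8.18%, 14.7% and 16.4% of collecting duct-like cells. Before thinning these shares were 99.5%, 99.3% and 92.9% in endothelial-like cells (median 4454, 3780 and 3062.5 UMIs) and 36.4%, 55.3% and 56.2% in collecting duct-like cells (median 9592.5, 7370.5 and 6795 UMIs). Collecting duct-like cells were among those with least Klf2, at 2.51%, 4.22% and 9.14% of the endothelial CPM. T or NK-like cells stood at 63.7%, 34.1% and 31.8% of it. The Klf4 share after thinning was 47.7%, 53.9% and 26.6% in endothelial-like cells, against 6.36%, 10.7% and 6.85% in collecting duct-like cells; before thinning it was 84.4%, 85.3% and 57.3%. Klf4 was found more often in cells that also had Klf2, and so was Klf6. Among thinned cells with Klf2, 48.7%, 55.1% and 29.1% also had Klf4, while among those without Klf2 35.4%, 23.4% and 17.8% did. For Klf6 the shares were 25.1%, 35.6% and 20.2% with Klf2, against 17.0%, 20.9% and 14.8% without. The class pools clusters that differ in the level of these genes, and genes outside the family were not compared in this way.

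The genes upstream of endothelial Klf2 and Klf4 are the kinases and MEF2 factors named above, the flow-sensing channel Piezo1, and Krit1, Ccm2, Pdcd10 and Heg1 of the cerebral cavernous malformation complex, which restrains that kinase chain. None of the 11 passed 2-fold in either comparison, where 17.5% and then 10.6% of all genes did (the shares against which every list in endothelial-like cells is to be read), and their median log2 ratio was 0.06 in untreated over control and 0.22 in treated over untreated mice. Map3k3 had 98.6, 88.7 and 83.6 CPM in control, untreated and treated endothelial-like cells, and Map2k5 had 27.8, 30.0 and 47.1. Heg1, the transmembrane partner of the complex, had 240.2, 473.2 and 671.1 CPM, with log2 ratios of 0.98 and 0.50. Ccm2 had a log2 ratio of −0.47 and then 0.03.

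Among genes that Klf2 or Klf4 is known to raise, 6 of 7 had enough UMIs, Asb9 being the exception. S1pr1, the receptor of sphingosine 1-phosphate, was past 2-fold in untreated over control (146.7 and 313.5 CPM, 2.14-fold), and 0 of 6 were past it in treated over untreated mice. The median log2 ratio of the list was 0.45 and then 0.06. Nos3, the endothelial nitric oxide synthase, had 42.8, 71.8 and 85.4 CPM, and Thbd, the thrombomodulin gene, had 162.8, 300.8 and 302.0. These stayed near their untreated level in treated cells, while Klf2 and Klf4 were lower there. Nostrin, which binds Nos3, had a log2 ratio of −0.90 in untreated over control, and Cdkn1c, a cell cycle inhibitor that is also a podocyte marker, had −0.83 in treated over untreated mice.

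Of 7 genes that Klf2 or Klf4 is known to hold down, 4 were past 2-fold higher in untreated over control cells: the adhesion molecules Vcam1 and Sele, the chemokine Ccl2, and F3, which starts clotting. F3 rested on 11 and 20 UMIs, with a log2 ratio of 1.11 (−0.02 to 2.32) that is itself the median of the list. Vcam1 had 19.7, 430.3 and 572.4 CPM in control, untreated and treated cells, with log2 ratios of 4.45 and 0.41, and Sele had 160.9, 389.6 and 547.8, with 1.28 and 0.49. Klf2 and Vcam1 were thus both higher in untreated MRL/lpr than in control cells. In treated over untreated mice Ccl2 was past 2-fold higher (191 and 438 UMIs, log2 ratio 1.23), F3 was past 2-fold lower on 20 and 8 UMIs, and the median was 0.41. Angpt2, which loosens vessels, had a log2 ratio of 0.95, and the adhesion molecule Icam1 was lower in treated cells (391.7 and 286.1 CPM, log2 ratio −0.45).

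**Figure D4:**
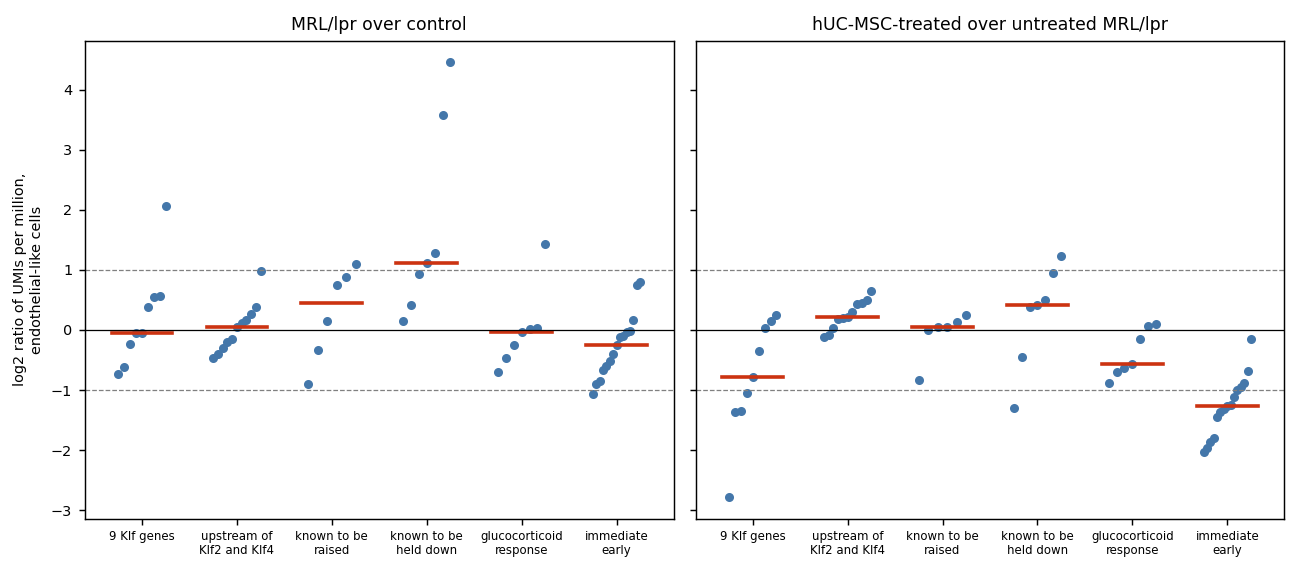
Log2 ratio of CPM in endothelial-like cells for the 9 Klf genes and 5 gene lists, with 1 point per gene, a red bar at the median and dashed lines at 2-fold. On the right the immediate early genes have a median of −1.26 and the 9 Klf genes one of −0.78, while the upstream genes lie around 0.22.

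Immediate early and heat shock genes, which rise when tissue is dissociated, were mostly lower in treated over untreated endothelial-like cells, as Klf2 and Klf4 were. Their summed level in endothelial-like cells was 55040 CPM in control, 42170 in untreated and 18320 in treated mice. In treated over untreated mice 10 of 15 were past 2-fold lower, with a median log2 ratio of −1.26, and in untreated over control 1 of 15 was, Hspa1a with a log2 ratio of −1.06, with a median of −0.25. Ier2 had a log2 ratio of −0.91 there. Fos had 7838, 7204 and 3607 CPM and Fosb 708.8, 1226 and 314.0. Atf3 had a log2 ratio of −2.03 in treated over untreated mice. The lower Klf2, Klf4 and Klf6 of the treated library thus came with lower immediate early genes in the same cells, and the part of cell handling in the Klf levels was not tested. Of 7 glucocorticoid response genes only Per1 passed 2-fold, in untreated over control (16.5 and 44.2 CPM, log2 ratio 1.42), and 0 of 7 passed in treated over untreated mice, with medians of −0.04 and −0.57. Nr3c1, the receptor itself, had 112.5, 115.7 and 124.5 CPM and Tsc22d3, a classical target, 277.6, 200.8 and 135.6. Zbtb16 had a log2 ratio of −0.70 in untreated over control, and Dusp1, which is also in the immediate early list, had −0.88 in treated over untreated mice. Of the 8 other Klf genes 5 had enough UMIs in endothelial-like cells (Klf5, Klf8, Klf11, Klf12 and Klf16), and 0 of 5 passed 2-fold in either comparison, with medians of 0.15 and 0.24. Klf16 had the largest ratio among them, −0.80 in treated over untreated mice.

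Mesangial or stromal-like cells numbered 1059, 1832 and 2361. Mesangial cells proper, which hold up the capillary loops, made up 786 of the control, 1604 of the untreated and 31 of the treated cells, while smooth muscle or renin-like cells made up 45, 107 and 876. The treated values of this class are therefore mostly of stromal and smooth muscle or renin-like cells. Klf2 had 994.5, 2004 and 658.2 CPM there and Klf4 143.4, 347.7 and 74.5. Both were highest in the untreated and lowest in the treated library, as in endothelial-like cells. In untreated over control mice 3 of 9 genes passed 2-fold (18.3% of all genes did): Klf2 with a log2 ratio of 1.01, Klf4 with 1.28 and Klf15 with −1.28. The Klf2 ratio was 0.69 when cells were limited to 200 to 3000 genes. In treated over untreated mice 4 of 9 passed (10.2% of all genes): Klf2 with −1.61, Klf4 with −2.22, Klf6 with −1.03 and Klf9 with −1.29. Klf9 had 268.6, 136.5 and 55.7 CPM, Klf13 228.9, 132.4 and 82.6, and Klf6 586.0, 580.4 and 284.5. Klf15 had 19.2, 7.92 and 9.41 CPM, beside 12.6, 9.72 and 8.32 in empty droplets, so that the untreated level was below theirs.

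The summed level of the 12 endothelial markers in these cells was 1840, 3340 and 2950 CPM. That sum was 12.5%, 26.5% and 21.7% of the endothelial level of the same library, with Eng the highest and no marker at 0, while Klf2 was at 24.2%, 32.7% and 27.6% of its endothelial level. Free RNA was estimated at 4.37%, 12.1% and 20.1% of their UMIs. Klf2 was below empty droplets in control and treated cells and near them in untreated cells (1492, 1913 and 1352 CPM in empty droplets), and so was Klf4 (261.4, 346.7 and 254.8 CPM). The part of endothelial and free RNA in the values of this class was not tested. The immediate early sum was 47720, 36230 and 12390 CPM, and 13 of 15 such genes were past 2-fold lower in treated over untreated mice. Most cells again sat in different clusters: 776 of the control cells in cluster 19 (Sfrp2 and Rgs4), 1498 of the untreated in cluster 11 (Il6 and Tnc), and 1454 of the treated in cluster 6 (Col12a1 and Col3a1). In cluster 6, which each library filled with 228, 121 and 1454 cells, Klf2 had 500.6, 1465 and 598.5 CPM, the same order for the untreated library. Under the narrow name mesangial-like, with 786 and 1604 cells, 2 of 9 genes passed 2-fold in untreated over control, Klf4 with a log2 ratio of 1.24 and Klf15 with −1.18 (17.7% of all genes). The 31 treated cells were too few to compare. In smooth muscle or renin-like cells 3 of 9 passed in treated over untreated mice (17.2% of all genes): Klf2 with −1.63, Klf4 with −1.43 and Klf15 with 1.33, the last on 1 and 22 UMIs.

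Podocyte-like cells, the epithelium that covers the capillaries, numbered 2312, 809 and 143. Klf2 had 325.2, 796.5 and 291.5 CPM and Klf4 16.3, 68.0 and 33.5, again highest in the untreated library. These levels are below those of empty droplets (Klf2 1492, 1913 and 1352, Klf4 261.4, 346.7 and 254.8 CPM). Free RNA was estimated at 2.58%, 6.96% and 6.65% of the UMIs of these cells. In untreated over control 2 of 9 genes passed 2-fold (16.1% of all genes), Klf2 with a log2 ratio of 1.29 and Klf4 with 2.06, and both fell short of it, at 0.98 and 0.84, when predicted doublets were kept. In treated over untreated 3 of 9 passed (8.41% of all genes): Klf2 with −1.45, Klf4 with −1.02 and Klf15 with −1.07, the latter on 94 and 8 UMIs. Only Klf2 still passed when doublets were kept, where Klf4 gave −0.65 and Klf15 −0.99, or when cells were thinned, where Klf4 gave −0.55. Klf15, whose loss in podocytes is known to worsen injury, had 22.5, 15.3 and 7.24 CPM, beside 12.6, 9.72 and 8.32 in empty droplets. The treated value did not exceed that of empty droplets. Klf9 had 87.4, 46.1 and 34.4 CPM and Klf13 123.3, 77.4 and 63.4, all below empty droplets (161.9, 123.9 and 97.3 for Klf9, and 151.8, 123.2 and 117.2 for Klf13). Of the podocytes, 1673 and 606 control cells sat in clusters 10 and 20 and 788 untreated and 117 treated cells in cluster 15, where the log2 ratio of treated to untreated was −1.30 for Klf2 and −0.94 for Klf4. The immediate early sum was 10190, 20100 and 8568 CPM, so that it also was highest in untreated podocytes.

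Tubule-like cells numbered 168, 1847 and 273. Collecting duct-like cells numbered 110, 150 and 73, so that they were most of the control class but few of the untreated. The part of this make-up in the ratios of the class was not tested. Klf2 had 141.6, 1183 and 384.8 CPM and Klf4 30.4, 237.0 and 90.3. Over the whole class 4 of 9 genes passed 2-fold in untreated over control (28.9% of all genes): Klf2 with a log2 ratio of 3.06, Klf4 with 2.96, Klf7 with 2.25 and Klf10 with −1.85. In treated over untreated 3 of 9 passed, Klf2 with −1.62, Klf4 with −1.39 and Klf15 with −1.37 (11.7% of all genes). Under a stricter cell call (the order-of-magnitude rule) the Klf2 and Klf4 ratios were −0.84 and −0.69. Immediate early genes summed to 9673, 14300 and 7436 CPM, with 9 of 15 past 2-fold lower in treated over untreated mice. Of the untreated cells 1239 were in cluster 12, led by Umod, Egf and Kap, with a median of 1779 UMIs over its cells of all libraries. Free RNA was estimated at 4.86%, 44.5% and 24.6% of the UMIs of the class, and the endothelial marker sum was 2.01%, 18.5% and 11.5% of its endothelial level, no marker being at 0. Klf2 moved with both, at 3.44%, 19.3% and 16.1% of its endothelial level. How much of tubular Klf2 and Klf4 is endothelial RNA was not tested.

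Proximal tubule-like and collecting duct-like cells had less free RNA than the tubule class as a whole. It was estimated at 1.55% in control and 7.49% in untreated proximal tubule-like cells. For collecting duct-like cells it was 2.72%, 7.63% and 8.44%. In proximal tubule-like cells, 52 in control and 458 in untreated mice, Klf2 was at 98.1 and 168.6 CPM, and 3 of 9 genes passed 2-fold (21.9% of all genes). They were Klf4 with a log2 ratio of 2.17 on 5 and 148 UMIs, Klf7 with 1.37 on 4 and 68 UMIs and Klf10 with −1.81 on 25 and 47 UMIs. After thinning the Klf4 ratio was 0.13. Klf2, Klf4 and Klf7 were below empty droplets here in both libraries, and so was untreated Klf10. The endothelial marker sum was 2.32% and 2.71% of its endothelial level in these proximal cells. Klf15 was higher here than in any other class, at 100.1 and 62.7 CPM, and the 50 and 206 UMIs put it above empty droplets in both libraries. In collecting duct-like cells (110, 150 and 73) 5 of 9 genes passed in untreated over control (14.4% of all genes) and 1 of 9, Klf15, in treated over untreated (7.3%). Klf2 had 103.4, 258.4 and 218.2 CPM and Klf10 124.6, 58.1 and 33.1. The log2 ratio of untreated to control was 1.32 for Klf2 (0.91 with free RNA subtracted) and Klf10 was 2.15-fold lower. The remaining ratios past 2-fold were 1.73 for Klf4, 1.06 for Klf7 and 1.97 for Klf15, the last on 7 and 27 UMIs. The endothelial marker sum was 1.22%, 3.23% and 4.59% of its endothelial level in these cells, beside 2.51%, 4.22% and 9.14% for Klf2 and 3.7%, 9.39% and 17.8% for Klf4. Klf2, Klf4 and Klf7 were below empty droplets in each library, and the part of endothelial RNA in them was not tested. Klf10 was lower in untreated MRL/lpr than in control mice in both tubule classes.

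In phagocytes and T or NK-like cells Klf2 was lower in untreated MRL/lpr than in control mice. In monocyte or macrophage-like cells (119, 2162 and 3741) Klf2 had 2372, 1357 and 895.4 CPM, Klf4 314.3, 255.7 and 211.2, and Klf10 268.6, 110.4 and 106.2. Klf2 was below empty droplets in the untreated and treated phagocytes (1913 and 1352 CPM), and free RNA was estimated at 3.83%, 10.3% and 8.54%. Klf10 was the only gene of the 8 with enough UMIs to pass 2-fold in untreated over control, with a log2 ratio of −1.28 (−1.53 to −1.03), where 24.9% of all genes passed, and the Klf2 ratio was −0.81 (−0.89 to −0.72). Between treated and untreated phagocytes 0 of 9 passed (8.48% of all genes), the ratio being −0.60 for Klf2 and −0.81 for Klf9. Under the narrow name macrophage-like, with 89, 1672 and 3338 cells, 3 of 8 passed in untreated over control (30.2% of all genes), namely Klf3 with −1.23, Klf10 with −1.56 and Klf13 with −1.24. The control macrophage-like cells held 348432 UMIs, against 8112536 in untreated mice. A gene with 0 control UMIs was set to 3 there, which can count it as lower in untreated mice. The share of 30.2% may include such genes. In treated over untreated macrophage-like cells 0 of 8 passed (9.17%), and Klf2 gave −0.65. The immediate early sum of the phagocytes was 13420, 9638 and 8807 CPM. In treated over untreated mice 0 of 15 such genes were past 2-fold lower and 2 were past it higher, Hspa1a and Hspa1b. The endothelial marker sum was 6.05%, 4.71% and 4.93% of the endothelial level, with Pecam1, which phagocytes also express, the highest against its endothelial level, and Klf2 was at 57.6%, 22.2% and 37.5%. Klf15 had 0 UMIs in the 119 control cells, which allows up to 6.74 CPM.

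In T or NK-like cells (163, 949 and 673) Klf2, which keeps resting T cells in circulation, had 2623, 2090 and 759.2 CPM. The treated level was below the 1352 CPM of empty droplets, and free RNA was estimated at 6.21%, 18.3% and 13.3% of the UMIs of these cells. In untreated over control 1 of 8 genes passed 2-fold, Klf4 with a log2 ratio of 1.34 on 19 and 182 UMIs (19.2% of all genes), and it was 0.56 after free RNA was subtracted. Between treated and untreated T or NK-like cells 4 of 8 passed (11.5%): Klf2 with −1.46 (−1.56 to −1.37), Klf3 with −1.05, Klf4 with −1.45 and Klf9 with −1.69, all lower. Klf4 and Klf9 were below empty droplets in all 3 libraries and treated Klf3 (109.4 CPM) was at their level (111.4). The part of free RNA in these calls was not tested. Under the order-of-magnitude cell call Klf3 and Klf9 gave −0.59 and −0.62. Klf6 came close at −0.92, with 754.9, 545.0 and 287.3 CPM. Of 4 T cell genes under Klf2, 0 passed in untreated over control (median 0.15) and 2 were past 2-fold lower in treated over untreated mice (median −0.75). S1pr1, the exit receptor of lymph nodes, had 126.4, 215.2 and 106.0 CPM. Treated S1pr1 was close to the 98.0 CPM of empty droplets. Il7r, the interleukin 7 receptor, had 190.5, 160.9 and 153.2 CPM, and Itgb7, an integrin of gut homing, 178.0, 94.4 and 67.7. Ccr7, which guides naive T cells to lymph nodes and also marks dendritic cells, had 99.7, 144.4 and 16.4, a log2 ratio of −3.14 (−3.80 to −2.54). Klf2, S1pr1, Ccr7 and Itgb7 were thus lower in the treated than in the untreated library, whereas the Il7r interval (−0.32 to 0.18) included 0. The log2 ratio of Itgb7 was −0.48 (−0.84 to −0.12). The share of naive T cells in each library was not tested. In these cells 8 of 15 immediate early genes were past 2-fold lower in treated over untreated mice, with sums of 6360, 7539 and 3792 CPM. In neutrophil-like cells, 295 untreated and 202 treated, 1 of 8 genes passed (10.1% of all genes), Klf9 on 33 and 6 UMIs. Its log2 ratio of −1.72 turned to 0.0448 under the order-of-magnitude cell call. Klf2 had 1698 and 1119 CPM, below the 1913 and 1352 of empty droplets, and free RNA was estimated at 15.6% and 15.4%.

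Levels over the 21 groups of broad class and library with at least 50 cells, erythroid cells aside, differed in range from gene to gene. Narrow classes were not ranked here. Klf2, Klf4, Klf6, Klf7 and Klf13 were lower in control proximal tubule-like cells than in any of these groups. Klf4 spanned 65.2-fold, from 1063 CPM in untreated endothelial-like cells to 16.3 in control podocyte-like cells, and Klf2 43.3-fold, from 6123 to 141.6. Klf6 spanned 3.83-fold and Klf13 7.06-fold over the same groups. In the order of Klf2 levels 7 of 20 neighbouring groups had overlapping intervals, against 12 of 20 for Klf4 and 17 of 20 for Klf6. Such counts depend on the number of UMIs, and no share over all genes was taken. Cells held 139242, 183508 and 76190 UMIs of Klf2 in the 3 libraries, against 24099, 26477 and 15235 of Klf6. The highest of these groups was untreated endothelial-like cells for Klf2 and Klf4, control endothelial-like cells for Klf7 and Klf9, control T or NK-like cells for Klf3 and Klf6, control phagocytes for Klf10 and Klf13, and untreated tubule-like cells for Klf15. Klf15 was higher still in the proximal tubule-like part of the tubule class. Several of these highest classes did not hold in every library: in untreated mice Klf6 was higher in mesangial or stromal-like cells (580.4 CPM) than in T or NK-like cells (545.0), and in treated mice Klf3 and Klf13 were higher in endothelial-like cells (179.1 and 187.2 CPM) than in T or NK-like cells (109.4) and phagocytes (158.5).

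Over 24 groups, now with erythroid cells, the gene most like Klf4 among 12410 was Cdkn1a, the cell cycle inhibitor p21, with Pearson's r = 0.972 on log2 levels, followed by Rhob with 0.948 and Plk2 with 0.932. Those most like Klf2 were Arl5b (0.933), Gm26532 (0.919) and Akap13 (0.913), and without erythroid cells Arl5b gave 0.871. Klf7 was closest to Syne1 (0.953), Klf3 to Gabpb1 (0.964), Klf6 to Sf3b1 (0.959), Klf9 to Lrrc8a (0.927), Klf10 to Cmip (0.916), Klf13 to Sde2 (0.966) and Klf15 to Abat (0.954). The Klf6 value was 0.807 without the erythroid groups. These groups share 3 libraries, so the values describe likeness over groups that are not independent.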

How the data were processed

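Glomerular cells of 3 libraries were measured, 1 per condition, and samples were grouped by their labels. The authors deposited unfiltered UMI counts per gene and barcode. The file headers name Cell Ranger 4 while the methods name another version, and the submitters' processing notes name mm10, STAR and Cell Ranger. Barcodes with at least 1000 UMIs and at most 10% mitochondrial UMIs were kept, and predicted doublets (Scrublet, 0.8% per 1000 barcodes: 971, 1593 and 2201) were removed. The study's limit of 5% ribosomal UMIs was not applied, since it would have left 830, 927 and 627 cells. Each cell was scaled to 10000 UMIs before a log transform. From 2000 variable genes, the 9 Klf genes left out, came 10 principal components, 15 neighbours and Leiden clusters at resolution 1.0 (seed 0). Clustering used scanpy 1.11.5 on anndata 0.12.19, with igraph 0.11.9 and the neighbour search of scikit-learn 1.9.0, in Python 3.11.15. Intervals came from scipy 1.17.1, tables from pandas 2.3.3 and numpy 2.4.6, and figures from matplotlib 3.10.9. A cluster took a name where at least 3 markers reached 10% of its cells and 2-fold over the other cells and no other class scored within 0.5 (log2). It stayed unnamed otherwise, or where its leading genes pointed elsewhere or its depth was more than 3-fold below that of its samples. Families of classes (such as mesangial or stromal) were used because narrow names tied, a choice made after seeing the data.

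UMIs were summed per class and library and scaled to 1000000 UMIs of the class (CPM). Levels have exact Poisson intervals, ratios conditional exact binomial intervals and shares Clopper-Pearson intervals, all at 95% and for counting error only. Classes with at least 50 cells in both libraries were compared, and genes with at least 20 UMIs over both were counted as past 2-fold either way. Empty droplets are barcodes with 1 to 100 UMIs. They hold free RNA alone, which is only a share of the UMIs of a cell. A level below theirs therefore does not by itself mark background. The free RNA share is the median, over markers of other classes, of the level in the class over that in empty droplets, so it also counts low real expression. The ratios were tested on simulated data. Alternatives were the cell call, gene limits, mitochondrial limit, doublets, resolution, Klf genes in clustering, free RNA, thinning, a fold of 1.5 and centring. The Klf genes and all lists (upstream, raised, held down, T cell, glucocorticoid, immediate early, other Klf) were chosen with earlier results of these data known. For each list the first 2 genes are named (not for the other Klf genes) and those of largest ratio with at least 50 UMIs, and other named members were chosen after their values were seen. Likeness is Pearson's r of log2 (CPM + 10) over genes with at least 500 UMIs. A gene of the held down list and another of the T cell list are not reported here, and the counts and medians leave them out.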

Additional observations from a re-analysis of the deposited data

Results flagged for a closer look

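Klf15 had opposite directions in 2 classes between untreated MRL/lpr and control mice. Its log2 ratio was 2.06 in endothelial-like cells, on 10 control and 35 untreated UMIs, and −1.28 in mesangial or stromal-like cells, on 271 and 88 UMIs. The difference between the classes was not tested, and the endothelial levels were below those of empty droplets.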

How the results depend on the processing

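The number of genes past 2-fold in endothelial-like cells between untreated MRL/lpr and control mice went from 1 to 0 when cells were thinned or free RNA was subtracted and to 3 at a fold of 1.5. In mesangial-like cells it went from 2 to 1 with 200 to 3000 genes per cell and to 5 at a fold of 1.5. In podocyte-like cells it went from 2 to 0 with doublets kept and to 4 at a fold of 1.5, and in treated over untreated podocytes from 3 to 1 with doublets kept or cells thinned. In proximal tubule-like cells it went from 3 to 1 when thinned and to 5 at a fold of 1.5, and in macrophage-like cells of treated over untreated mice from 0 to 2 at a fold of 1.5. The cause of these changes was not tested. The Klf9 ratio of neutrophil-like cells turned from −1.72 to 0.0448 under the order-of-magnitude cell call.

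Treated over untreated endothelial-like cells gave log2 ratios of −1.48 to −1.34 for Klf2, −1.46 to −1.30 for Klf4 and −1.16 to −0.996 for Klf6 over all alternatives, those added after seeing the data included. Klf4 of treated podocytes ranged from −1.41 to −0.551, tubular Klf2 in untreated over control from 1.42 to 3.99, and Klf4 of mesangial or stromal-like cells in treated over untreated from −3.58 to −1.36. Mesangial-like and proximal tubule-like cells of treated mice were too few (31 and 47) for any ratio. No paired analysis was possible because there was 1 library per condition. Depth limits Klf15, which had 10, 35 and 5 UMIs in endothelial-like cells.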

Other observations

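The 3 clusters of mononuclear phagocytes differed in Klf4, a factor known in the patrolling type of monocyte. Cluster 1, led by Cd300e, Clec4e and Fcgr4, had 480.4, 430.4 and 316.7 CPM of Klf4 in control, untreated and treated mice. Cluster 16, led by Ly6c2, Ms4a4c and Ccr2, had 262.5 in untreated and 183.4 in treated cells, and cluster 5, led by C1qc, Ms4a7 and Trem2, had 107.4 and 121.0. Klf4 was thus highest in cluster 1 and lowest in cluster 5 in both MRL/lpr libraries. Clusters 16 and 5 lay below the 346.7 and 254.8 CPM of Klf4 in empty droplets. Klf2 had the same order, with 1720 CPM in cluster 1, 1214 in cluster 16 and 1147 in cluster 5 of untreated mice. In treated mice it had 1025, 894.7 and 774.6 CPM. These Klf2 values all lay below those of empty droplets, 1913 CPM in untreated and 1352 in treated mice.

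B or plasma-like cells reached 50 cells in the treated library alone (111). Klf2 stood at 670.3 CPM there, Klf6 at 208.0 and Klf3 at 63.2, each below empty droplets (1352, 273.4 and 111.4 CPM). Klf15 had 0 UMIs, which allows up to 5.68 CPM.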
